A study of Homo sapiens with 7 samples.

Results

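SLC16 genes encode the monocarboxylate transporters, plasma membrane carriers of lactate, pyruvate, ketone bodies and related small acids. The set described here is 7 of them (SLC16A1, SLC16A3, SLC16A4, SLC16A5, SLC16A6, SLC16A7 and SLC16A9) with the glycoproteins basigin (BSG) and embigin (EMB). These 9 genes were taken by their deposited symbols from a table of 33694 genes. They were chosen with the contrast of siGLUT2 with scrambled libraries already known, so their levels and fold changes are a description, and the count of those past the threshold, given once beside the share of all genes, is no test of them.

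The best studied carriers of the family, MCT1 (SLC16A1), MCT2 (SLC16A7) and MCT4 (SLC16A3), move a monocarboxylate together with a proton, so the direction of transport follows the gradients of both. MCT4 is the form typical of cells that export lactate, and MCT2 has a high affinity for pyruvate. These carriers reach the cell surface only when bound to a single-pass immunoglobulin-type protein, basigin for MCT1 and MCT4 and embigin for MCT2. In the kidney, the proximal tubule takes up filtered lactate at its luminal side with sodium-coupled carriers, uses it for glucose production and passes monocarboxylates on at the basal side.

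The cells were HK-2, a human proximal tubule line immortalised with papillomavirus genes, so each library samples the same single line. Both groups were grown with 5% serum and 2 mM glutamine, transfected with 50 nM siRNA and lysed after 96 h. The 4 scrambled libraries (replicates 1 to 4, genotype label WT) received an siRNA of scrambled sequence, and the 3 siGLUT2 libraries (replicates 2 to 4, genotype label GLUT2-KD) received an siRNA against GLUT2, the glucose transporter encoded by SLC2A2. The labels call the replicates biological, without naming separate cultures, so p-values cover the spread among libraries of 1 line. The comparison asks which transcripts differ between the transfections. Levels are CPM, counts scaled to library size with TMM factors. Each log2 fold change sets siGLUT2 against scrambled and comes from edgeR with its SE. The libraries come from a 3' method that counts transcript ends, so levels of different genes were not divided by length.

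SLC2A2 was counted 13, 13, 7 and 17 times in scrambled replicates 1 to 4 and 0 times in each siGLUT2 library (edgeR adjusted p = 0.0085). It did not pass the filter on low values without scrambled replicate 1, 2 or 4, after thinning to the smallest total, or with a minimum mean of 5 CPM. Totals ranged from 5654957 to 8455963 counts in scrambled and from 5881366 to 6914302 in siGLUT2 libraries. Detected genes ranged from 14844 to 15036 in scrambled and from 13433 to 13891 in siGLUT2 libraries, and the mitochondrial share of counts from 4.91% to 5.53% and from 7.04% to 7.56%. Both measures moved with the group. Of 15 proximal tubule markers, 5 were at 0 in every library (among them LRP2, SLC5A1, SLC22A6 and SLC22A8), and 4 passed the low-count filter (PAX8, GGT1, MIOX and SLC5A2). Of these, GGT1 rose from 38.0 ± 4.87 to 56.4 ± 5.05 CPM (edgeR adjusted p = 0.0074) and 0 fell. Endothelial markers summed to at most 0.432 CPM and leukocyte markers to at most 1.58 CPM, and 7 of 9 markers of other nephron segments were at 0. Of 7 epithelial keratin and adhesion genes, 4 fell (KRT7, KRT8, KRT18 and KRT19) and 0 rose by edgeR, with sums of 1412 to 1529 CPM in scrambled and 956 to 1100.5 CPM in siGLUT2 libraries. Fibroblast and pericyte markers summed to 13.9 to 21.1 CPM in scrambled and 21.7 to 27.6 CPM in siGLUT2 libraries. Of 3 tested, COL1A1 rose (0.82 ± 0.27, edgeR adjusted p = 0.026) and 0 fell, and COL3A1 was at 0. The part of these differences in marker levels, detected genes and mitochondrial share in the results was not tested.

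The sequences that follow are shown because a short word in the 3' UTR of SLC16A1 also stands in those of SLC16A7, SLC16A9 and EMB. Log2 fold changes were -2.50 in SLC16A1, the lowest of the members, 0.16 in SLC16A7, -0.57 in SLC16A9 and 1.20 in EMB. The words GACCTTA and ACCTTAA were picked in an earlier scan of these same fold changes, and the sequence of the GLUT2 siRNA is not given in the sources used here. Windows are 30 bases of the longest annotated 3' UTR in GENCODE release 29 (GRCh38), read 5' to 3' on the gene's strand, with the word in capitals. They lie at chr1:112912093-112912122 (minus) for SLC16A1, chr12:59782669-59782698, chr12:59782773-59782802 and chr12:59785398-59785427 (plus) for SLC16A7, chr10:59651664-59651693 (minus) for SLC16A9 and chr5:50397322-50397351 (minus) for EMB.
SLC16A1: cagagcagttaACCTTAAggaaacaatgaa
SLC16A7 site 1: tttactacttaACCTTAAatatgccatcac
SLC16A7 site 2: tcacctagcacACCTTAAgagacaaaaaat
SLC16A7 site 3: taaaagtctctACCTTAAgagcaaaattaa
SLC16A9: agttgcatttaACCTTAAgaaaaatgtcct
EMB: ttatctcagtaACCTTAAataggaaaagta

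The 3' UTRs that hold ACCTTAA are 2044 bases long in SLC16A1, 10176 in SLC16A7, 2011 in SLC16A9 and 3081 in EMB. Those of SLC16A3, SLC16A4, SLC16A5, SLC16A6 and BSG hold neither word. Among 11654 tested genes with a 3' UTR of at least 50 bases, 16.4% held either word. Their median log2 fold change was -0.09, against 0.02 for genes with neither word. By edgeR, 20.8% of genes with a word were called lower and 10.7% higher, against 13.6% and 15.2% of the others. The words were chosen on these fold changes, so this difference is no separate support, and the part of the word in any member's level was not tested. Genes with and without a word were also not matched for 3' UTR length.

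**Figure D1:**
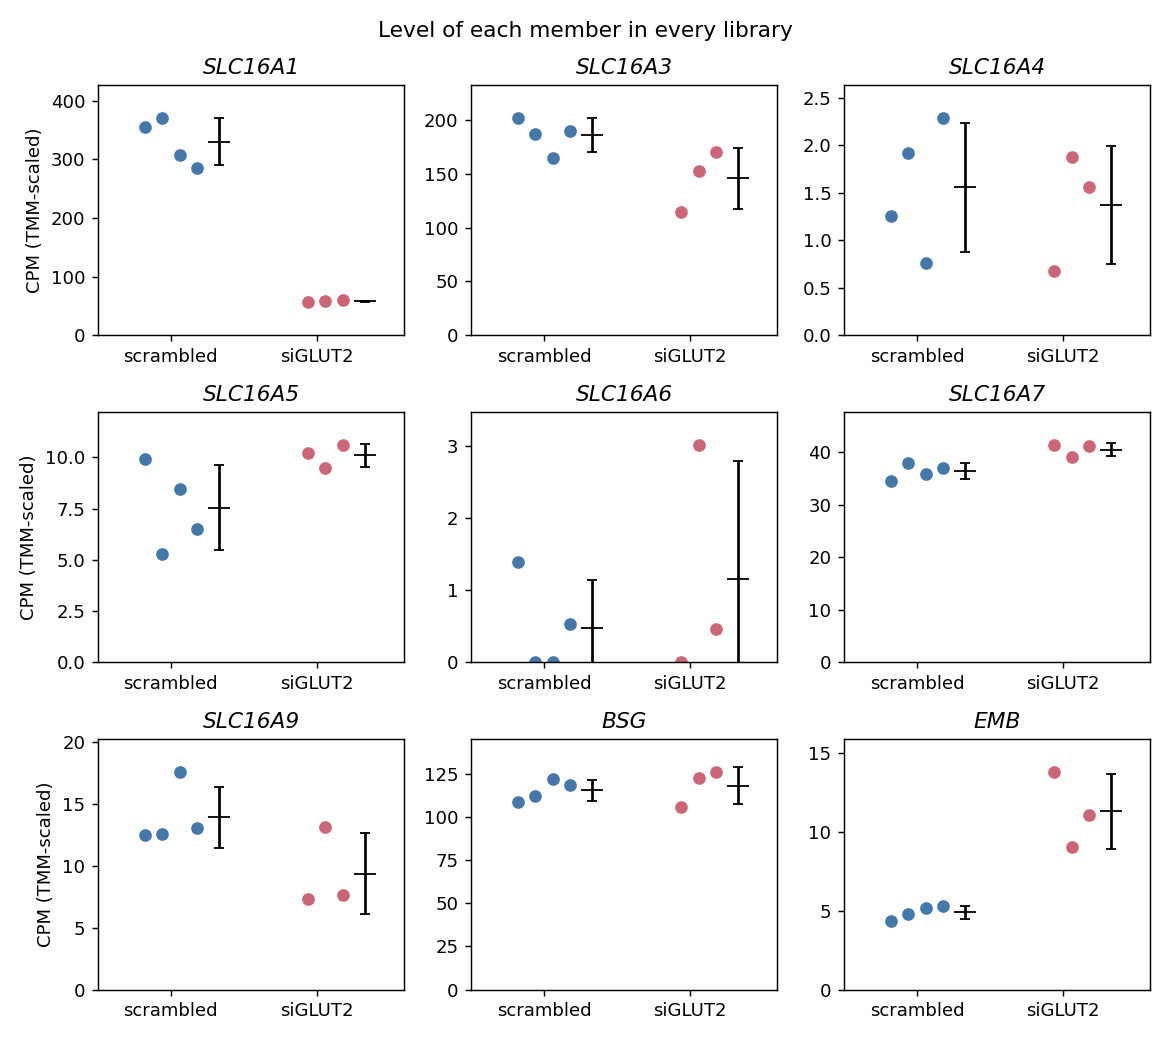
Each panel plots CPM (TMM-scaled, linear axis from 0) of 1 gene in the 4 scrambled (blue) and 3 siGLUT2 (red) libraries, with points from left to right in order of replicate number, and mean and SD as the black bar (bars below 0 end at the axis). SLC16A1 sits between 285 and 371 CPM in scrambled and between 57.2 and 59.5 CPM in siGLUT2 libraries, while BSG overlaps between groups.

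SLC16A1 (ENSG00000155380, GRCh38 chromosome 1, 112911847 to 112957013, minus strand) encodes MCT1, the broadly expressed carrier for lactate, pyruvate and ketone bodies. Its level was 356, 371, 307 and 285 CPM in scrambled replicates 1 to 4 and 57.2, 57.8 and 59.5 CPM in siGLUT2 replicates 2 to 4. Every siGLUT2 library lay far below every scrambled library, and the siGLUT2 libraries differed little from each other. The means were 330 ± 40.2 CPM (SD, n = 4) and 58.2 ± 1.17 CPM (SD, n = 3), so that 17.6% of the scrambled level was left. The log2 fold change of -2.50 ± 0.11 corresponds to a 5.67-fold lower level, and 81 of the 12404 tested genes had a lower log2 fold change. In a bulk library, fewer cells expressing a gene and less RNA per cell cannot be told apart. The gene rests on 10814 counts over all libraries, the most of the 9 genes.

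SLC16A1-AS1, an antisense transcript that overlaps the first 599 bases of the SLC16A1 locus, was at 32.2, 32.3, 28.5 and 35.6 CPM in scrambled and 27.9, 18.8 and 30.1 CPM in siGLUT2 libraries. Its groups overlapped (-0.33 ± 0.20, edgeR adjusted p = 0.231). The strand setting of the counting is not given in the sources used here, so reads from the shared bases could be assigned to either gene. Such bases are at the start of SLC16A1, away from the transcript end that a 3' method reads. The processed pseudogene SLC16A1P1 was not analysed here.

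SLC16A3 (ENSG00000141526, chromosome 17, 82228397 to 82261129, plus strand) encodes MCT4 and is known as a target of hypoxia-inducible factors. It was at 202, 187, 164 and 189.6 CPM in scrambled and 115, 152 and 169.99 CPM in siGLUT2 libraries. Replicate 2 was the lowest siGLUT2 library, and replicate 4 lay within the scrambled range. Means were 186 ± 15.7 CPM (SD, n = 4) and 146 ± 28.2 CPM (SD, n = 3), with a log2 fold change of -0.35 ± 0.12. Without siGLUT2 replicate 2 this became -0.21. CSNK1D, a casein kinase gene on the other strand, shares 22107 bases with the SLC16A3 locus and had a similar fold change (-0.30 ± 0.13, edgeR adjusted p = 0.104, and 0.0179 without siGLUT2 replicate 4). Without the strand setting, reads of the pair cannot be told apart where they overlap.

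One SLC16A3 promoter is shown because the regulators listed further on include the hypoxia factors. RefSeq windows (250 bases before to 50 after a start, GRCh38.p14) were present for 5 of the 9 genes, among them 5 windows of SLC16A3. SLC16A1, SLC16A5, SLC16A6 and EMB had no window and were not searched. The window printed, chr17:82228792-82229091 on the plus strand, holds the most matches to ACGTG, the core of the hypoxia response element. Both strands were searched and overlapping matches counted once. Capitals mark the 2 matches.
SLC16A3 promoter: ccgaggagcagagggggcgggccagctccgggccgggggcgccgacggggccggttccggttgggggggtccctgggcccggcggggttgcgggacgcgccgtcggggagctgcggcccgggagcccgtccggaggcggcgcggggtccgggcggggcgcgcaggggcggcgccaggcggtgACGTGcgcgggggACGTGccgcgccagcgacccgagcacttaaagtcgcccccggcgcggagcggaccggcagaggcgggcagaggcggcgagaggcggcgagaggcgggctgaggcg
Of 35116 such windows of all genes, 21.4% held at least 1 match and 3.40% held 2 or more. These shares are per window, whereas the printed window was picked as the highest of the 5 of SLC16A3. One window of BSG and one of SLC16A9 held 1 match, and the other windows of the set held 0. A match is a string of letters and was not tested as a binding site.

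SLC16A7 (ENSG00000118596, chromosome 12, 59596067 to 59789855, plus strand), which encodes MCT2, differed little between groups. It was at 34.4, 38.0, 35.9 and 37.0 CPM in scrambled and 41.4, 39.0 and 41.1 CPM in siGLUT2 libraries. All siGLUT2 libraries lay above all scrambled libraries, but by a small step, from a mean of 36.3 ± 1.52 to 40.5 ± 1.30 CPM (0.16 ± 0.16). SLC16A7 holds 3 copies of the word that stands once in SLC16A1, and their part in its level was not tested.

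The remaining transporters were at low levels. SLC16A9, linked to carnitine and urate levels in blood, was at 12.5, 12.6, 17.6 and 13.0 CPM in scrambled and 7.32, 13.1 and 7.65 CPM in siGLUT2 libraries. Only siGLUT2 replicate 3 reached the scrambled range (-0.57 ± 0.30), and without it the log2 fold change was -0.89. SLC16A5 (MCT6), a carrier of bumetanide and other drugs, was at 9.93, 5.27, 8.46 and 6.51 CPM in scrambled and 10.2, 9.49 and 10.6 CPM in siGLUT2 libraries. Its scrambled replicate 1 lay above siGLUT2 replicate 3, so the groups overlapped (0.42 ± 0.33).

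SLC16A4, an orphan member of the family, was counted 9, 16, 6 and 13 times in scrambled and 4, 13 and 10 times in siGLUT2 libraries. At counts this low the sign of its fold change turned with the libraries used (-0.16 ± 0.86, and 0.15 without siGLUT2 replicate 2). AL355488.1, an antisense gene inside SLC16A4, was counted 11, 10, 7 and 5 times in scrambled and 0, 1 and 0 times in siGLUT2 libraries, too few for the filter, and its reads could not be told from those of SLC16A4 without the strand setting. SLC16A6 (MCT7), linked to ketone body export from liver, was counted 10, 0, 0 and 3 times in scrambled and 0, 21 and 3 times in siGLUT2 libraries. A count of 0 allows up to 3 counts, or 0.359 to 0.528 CPM in a library, and 21 of the 37 SLC16A6 counts came from siGLUT2 replicate 3. It was the 1 gene of the 9 that did not pass the low-count filter. With an SE of 0.86 log2 units for SLC16A4, even a difference of that size could go undetected at this depth, and SLC16A6 gave no fold change. SLC16A6 lies entirely within ARSG on the other strand, a gene with 52 counts in all.

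BSG (ENSG00000172270, chromosome 19, 571277 to 583493, plus strand), the partner of MCT1 and MCT4, did not follow SLC16A1. It was at 108, 112, 122 and 119 CPM in scrambled and 106, 123 and 126 CPM in siGLUT2 libraries. The siGLUT2 libraries span the whole scrambled range, with means of 115 ± 6.22 and 118 ± 10.8 CPM (0.04 ± 0.11). BSG rests on 5630 counts, so its SE is as small as that of SLC16A1.

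EMB (ENSG00000170571, chromosome 5, 50396192 to 50443248, minus strand), the partner of MCT2, was low and higher after siGLUT2. It was counted 31, 40, 41 and 30 times in scrambled and 81, 63 and 71 times in siGLUT2 libraries, or 4.34, 4.79, 5.18 and 5.28 against 13.8, 9.06 and 11.1 CPM. All siGLUT2 libraries lay above all scrambled libraries, with means of 4.90 ± 0.429 and 11.3 ± 2.37 CPM (1.20 ± 0.34, a 2.30-fold higher level). EMB has a near copy, the transcribed pseudogene EMBP1 on chromosome 1, which was not analysed here, so reads of the pair may have been split and its level is uncertain. EMB holds the word ACCTTAA, as does SLC16A1, and the part of the word in its level was not tested.

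**Figure D2:**
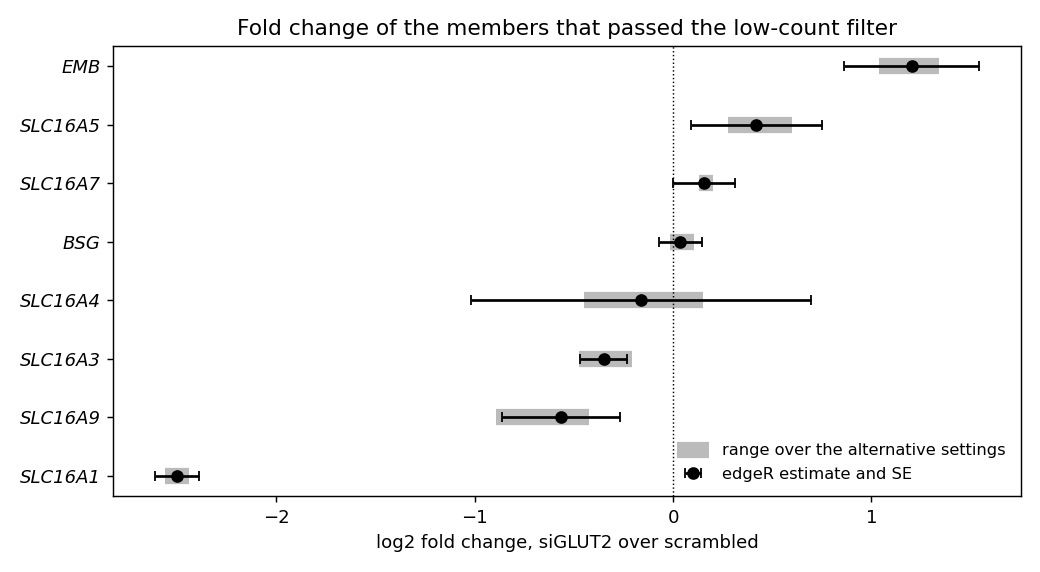
Log2 fold change of siGLUT2 over scrambled for the 8 genes that passed the low-count filter, with the edgeR estimate and SE (black) and the range over the alternative settings (grey). SLC16A1 stands alone at -2.50, EMB is at 1.20, and the other genes lie between -0.57 and 0.42.

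Of the 8 genes that passed the low-count filter, 3 had an edgeR adjusted p below 0.05, 1 higher (EMB) and 2 lower (SLC16A1 and SLC16A3). Over all 12404 tested genes that share was 28.3%, with 13.9% higher and 14.4% lower. Groups were fully separate in 3 of the 8 genes (SLC16A1 lower, SLC16A7 and EMB higher) and in 35.1% of all tested genes, 17.2% higher and 17.9% lower. The median log2 fold change was -0.06 over the 8 genes and -0.0029 over all tested genes. These counts come from the contrast the set was chosen on and nothing is read from them.

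The order of the levels changed at the top. In scrambled libraries it ran SLC16A1, SLC16A3, BSG, SLC16A7, SLC16A9, SLC16A5, EMB, SLC16A4, SLC16A6. Ranges of neighbours overlapped only for SLC16A5 with EMB and for SLC16A4 with SLC16A6. In siGLUT2 libraries SLC16A3 came first, with a range that overlapped that of BSG, followed by SLC16A1 and SLC16A7, which overlapped neither each other nor the genes around them. EMB, SLC16A5 and SLC16A9 then followed with overlapping ranges, and SLC16A4 and SLC16A6 were again last and overlapping.

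Shares within a library do not depend on scaling. SLC16A1 made up 57.6%, 60.3%, 57.5% and 53.4% of the counts of the 7 transporter genes in scrambled replicates 1 to 4, and 24.7%, 20.9% and 20.5% in siGLUT2 replicates 2 to 4. SLC16A3 made up 32.7%, 30.3%, 30.8% and 35.5% in scrambled and 49.6%, 55.0% and 58.5% in siGLUT2 libraries. SLC16A1 was thus the most counted transporter in every scrambled library and SLC16A3 in every siGLUT2 library. The ratio of SLC16A3 to SLC16A1 counts went from 0.568 ± 0.0697 (SD, n = 4) to 2.50 ± 0.441 (SD, n = 3).

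The 7 transporter genes together were at 575 ± 47.3 CPM (SD, n = 4) in scrambled and 266 ± 30.9 CPM (SD, n = 3) in siGLUT2 libraries. BSG and EMB together were at 120.1 ± 6.62 and 129 ± 8.98 CPM. Per count of a chaperone gene there were 4.82 ± 0.652 transporter counts in scrambled and 2.05 ± 0.101 in siGLUT2 libraries. Most of that change is the fall of the SLC16A1 counts, since the chaperone sum differed by about its spread. Within the chaperones, BSG outnumbered EMB 23.6 ± 1.04 to 1 in scrambled and 10.9 ± 2.96 to 1 in siGLUT2 libraries. All of these are transcript counts, and no protein or lactate flux was measured.

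**Figure D3:**
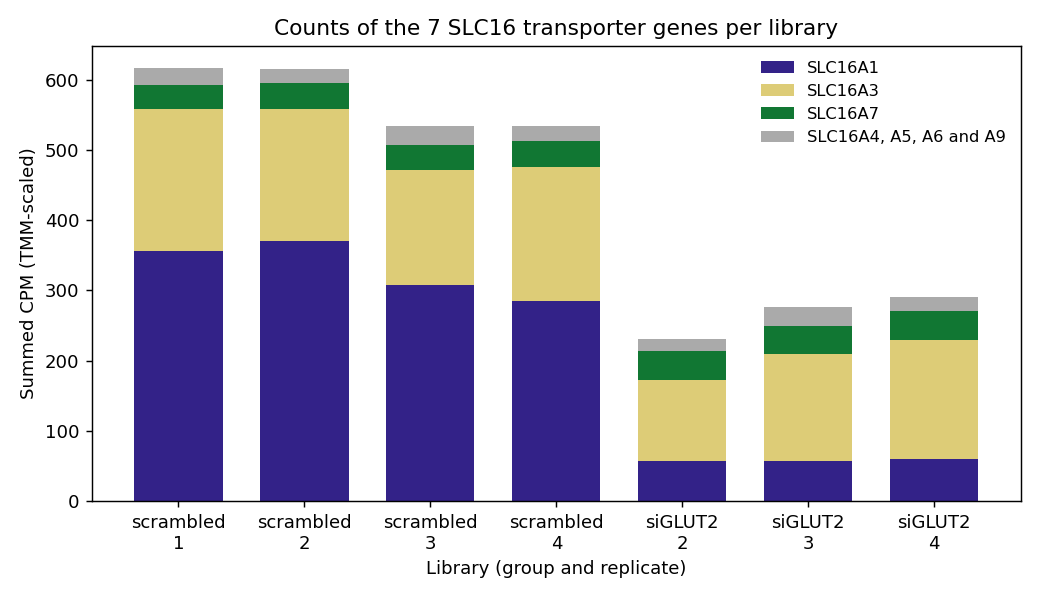
Stacked bars give the summed CPM (TMM-scaled, axis from 0) of the 7 SLC16 genes in each library, split into SLC16A1, SLC16A3, SLC16A7 and the 4 low genes. The siGLUT2 bars reach 232 to 291 CPM against 534 to 617 CPM in scrambled libraries, and the SLC16A1 segment accounts for most of the difference.

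By root mean square difference of log2 CPM centred on the scrambled mean, over the 7 libraries and 6935 genes with at least 20 CPM, the genes most like SLC16A1 were LMAN2 (0.18), ATP6V1B2 (0.21), WWTR1 (0.22), CDKN3 (0.24) and SLC25A1 (0.26). LMAN2, a cargo lectin of the early secretory pathway, went from 189 ± 18.8 to 33.2 ± 7.69 CPM, and ATP6V1B2, a subunit of the vacuolar proton pump, from 81.9 ± 3.56 to 16.8 ± 1.77 CPM. WWTR1, the transcriptional coactivator TAZ, went from 619 ± 22.6 to 136 ± 7.59 CPM. CDKN3, a phosphatase of cyclin-dependent kinases, went from 69.6 ± 8.51 to 15.3 ± 2.38 CPM. These genes were chosen for a pattern that the difference between groups dominates, so the likeness is a description. The 3' UTRs of LMAN2, ATP6V1B2 and WWTR1 held GACCTTA, those of CDKN3 and SLC25A1 held neither word. That of ATP6V1B2 held GACCTTA 3 times and also ACCTTAA 2 times, and these matches may overlap. Either word was held by 16.4% of tested genes with a 3' UTR of at least 50 bases. Both the genes and the words were picked on these fold changes, so nothing is read from this. SLC16A1 holds ACCTTAA and not GACCTTA. Windows of LMAN2 and WWTR1 at chr5:177331981-177332010 and chr3:149520756-149520785 (GRCh38, both minus) are shown, again with the word in capitals. Those of ATP6V1B2 are not shown.
LMAN2: aacaacaagatGACCTTAtttcttaactgt
WWTR1: gatgtagccatGACCTTAcatttcctgggc

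**Figure D4:**
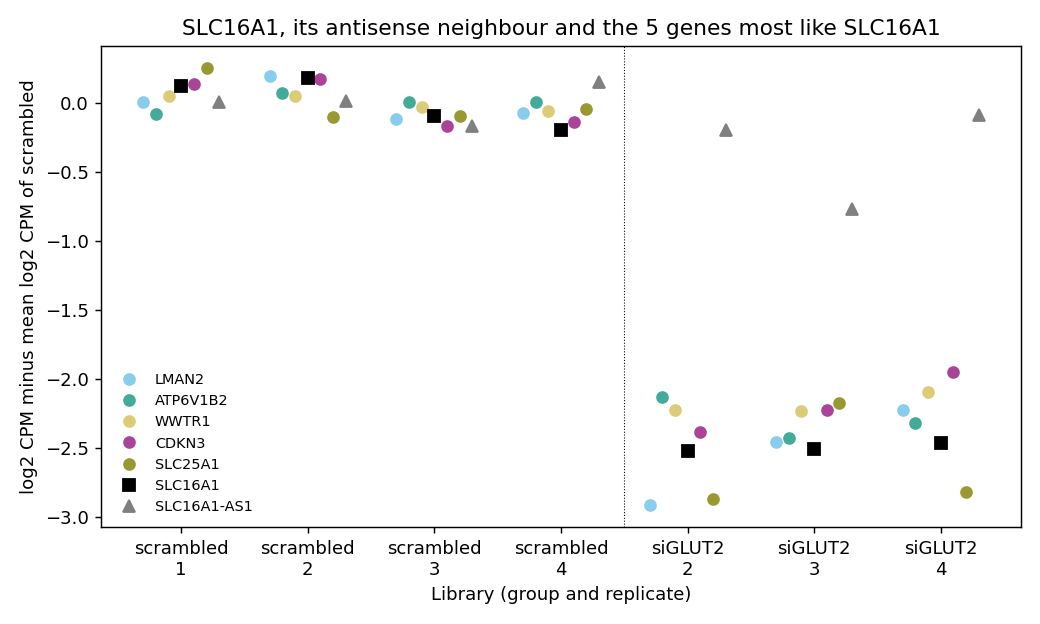
Log2 CPM of each library minus the gene's mean log2 CPM in scrambled libraries, for SLC16A1 (black squares), its antisense neighbour (grey triangles) and the 5 genes most like SLC16A1 (coloured circles), with points spread sideways for visibility. SLC16A1 and the 5 genes lie about 2 to 3 log2 units down in all siGLUT2 libraries, while SLC16A1-AS1 stays within 1 unit of its scrambled mean.

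Genes around monocarboxylate transport were followed in 7 lists that held none of the 9 genes. Of 60 tested genes, 7 rose and 10 fell by edgeR with Benjamini-Hochberg adjustment over all genes. That is 28.3% called, the same share as over all tested genes, and the median log2 fold change was 0.01 against -0.0029.

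Other SLC16 members were low. Of 7, 3 passed the low-count filter, 2 rose and 0 fell. SLC16A12, a creatine transporter of the kidney and eye, was at 29.5, 18.4, 16.3 and 16.6 CPM in scrambled and 29.97, 36.5 and 34.8 CPM in siGLUT2 libraries (0.74 ± 0.22, edgeR adjusted p = 0.0133). Leaving out scrambled replicate 3 (0.0515), scrambled replicate 4 (0.0518) or siGLUT2 replicate 3 (0.0524) raised the edgeR adjusted p above the threshold. SLC16A8, the MCT3 of retinal pigment epithelium, and SLC16A11 were at 0 counts in every library.

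The sodium-coupled carriers of the luminal membrane, SLC5A8 and SLC5A12, were at 0 counts in every library, below 0.359 to 0.528 CPM each. The mitochondrial pyruvate carrier subunits did not pass the test: MPC1 was at 7.29 ± 0.853 and 6.41 ± 0.227 CPM (edgeR adjusted p = 0.739) and MPC2 at 111 ± 6.55 and 105 ± 8.79 CPM (edgeR adjusted p = 0.666). Of the 5 tested carriers in that list, 0 rose and 2 fell, and neither of those 2 carries a monocarboxylate. SLC25A1, the mitochondrial citrate carrier, fell from 191 ± 23.7 to 31.7 ± 9.03 CPM (-2.58 ± 0.16, edgeR adjusted p = 6.53e-11). SLC25A10, the dicarboxylate carrier, fell from 43.4 ± 3.42 to 20.3 ± 3.75 CPM (-1.09 ± 0.18).

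Of the 2 main lactate dehydrogenase genes, one fell and one was not called. LDHA, whose subunit favours lactate formation, fell from 1002 ± 42.4 to 564 ± 21.6 CPM (-0.83 ± 0.08). LDHB, whose subunit favours pyruvate formation, was at 1198 ± 27.5 and 1211 ± 86.2 CPM (0.01 ± 0.07, edgeR adjusted p = 0.907). The difference between these fold changes was not tested, and LDHA and LDHB have pseudogenes that can share reads. Of 17 tested genes of lactate and pyruvate enzymes, 2 rose and 3 fell. Around pyruvate dehydrogenase, the phosphatase PDP1 rose (0.71 ± 0.13), its regulatory subunit PDPR fell (-0.81 ± 0.11), DLAT rose (0.66 ± 0.17) and DLD fell (-0.57 ± 0.16). The DLD call was lost without siGLUT2 replicate 3 (edgeR adjusted p = 0.0622). PDPR has near-identical copies, so its value is uncertain.

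Of the 6 tested ketone body enzymes, 0 were called by edgeR. DESeq2 and limma-voom called 0 of them, and 1 had an unadjusted edgeR p below 0.05 (BDH1, 0.43 ± 0.21, adjusted p = 0.123). AACS, which activates acetoacetate, was at 60.5 ± 11.5 and 55.9 ± 8.79 CPM, and ACAT1, the mitochondrial thiolase, at 41.0 ± 5.32 and 46.1 ± 5.11 CPM. Among 7 tested genes of proton and bicarbonate handling, 0 rose and 1 fell. The bicarbonate carriers SLC4A2 (0.31 ± 0.14, edgeR adjusted p = 0.110, and 0.0114 without siGLUT2 replicate 4) and SLC4A7 (0.01 ± 0.15) were not called. The gene that fell was carbonic anhydrase CA2, at 16.1, 14.1, 16.0 and 16.6 CPM in scrambled and 14.6, 5.90 and 3.43 CPM in siGLUT2 libraries (edgeR adjusted p = 0.0457). Its groups overlapped, and the call was lost in 8 of 18 alternatives.

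Among 11 relatives, partners and ligands of basigin, 1 rose and 0 fell. PPIA, the cyclophilin ligand of basigin, was at 530.3 ± 27.9 and 498 ± 74.1 CPM, and the integrin subunit ITGB1 at 375 ± 38.6 and 352 ± 32.6 CPM. CD44, the hyaluronan receptor, was the gene that rose, from 107 ± 12.5 to 231 ± 7.79 CPM (1.11 ± 0.10). NPTN, the closest relative of BSG and EMB, was at 76.2 ± 4.46 and 95.4 ± 14.7 CPM (0.33 ± 0.13, edgeR adjusted p = 0.0584, and 0.00849 without siGLUT2 replicate 4). NPTN was thus higher on average in siGLUT2 libraries, but replicate 4 lay within the scrambled range.

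Of 11 tested regulators, 2 rose and 4 fell. The alpha subunits of both main hypoxia-inducible factors fell at the transcript level, EPAS1 from 103 ± 12.6 to 39.96 ± 7.44 CPM (-1.37 ± 0.15) and HIF1A from 271 ± 9.13 to 204 ± 3.69 CPM (-0.41 ± 0.09). MYC, a known activator of SLC16A1, was higher, at 41.1, 34.0, 52.4 and 53.9 CPM in scrambled and 70.7, 80.6 and 56.0 CPM in siGLUT2 libraries (0.61 ± 0.17). That call was lost without siGLUT2 replicate 3 (edgeR adjusted p = 0.0692). Its partner MAX rose from 56.9 ± 4.84 to 100.3 ± 8.25 CPM (0.82 ± 0.12). SP1, a general promoter-binding factor, also fell (-0.66 ± 0.19). The part of MYC or of the other regulators in the level of SLC16A1 or any other member was not tested.

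**Figure D5:**
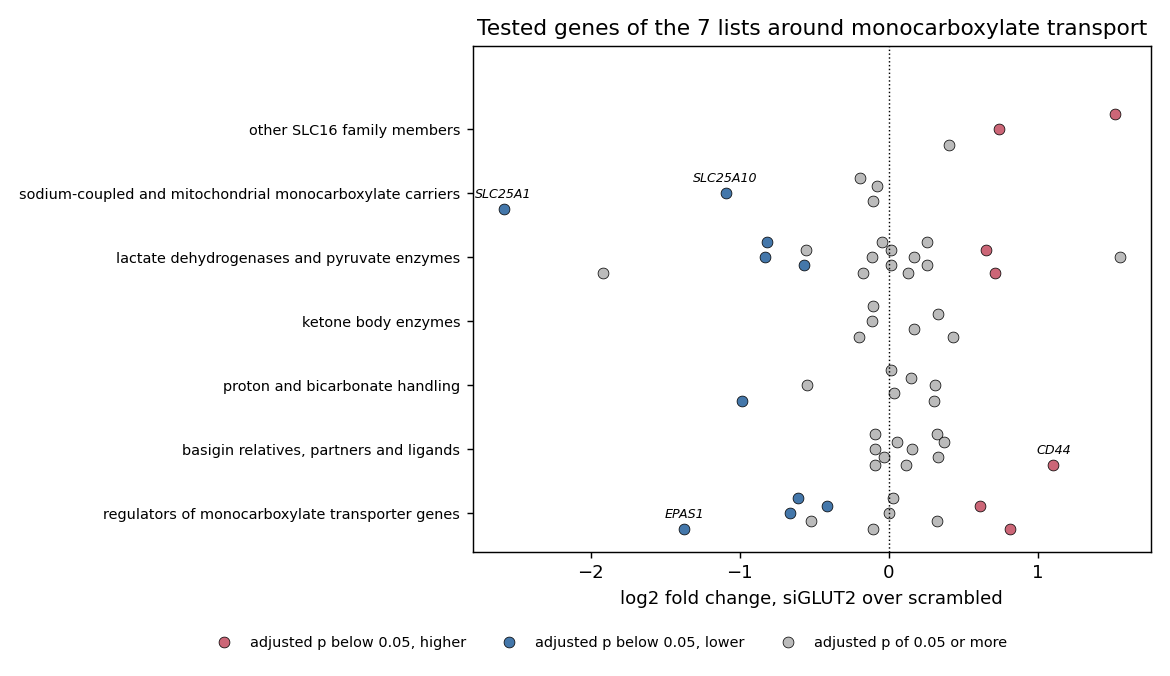
Each circle is a tested gene of the 7 lists, placed by its log2 fold change of siGLUT2 over scrambled and coloured by its edgeR adjusted p (red higher, blue lower, grey 0.05 or more), with called genes beyond 1 log2 unit and with a mean of at least 20 CPM named. Called genes lie on both sides of 0 in the lists of enzymes and regulators, and SLC25A1 is the lowest at -2.58.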

How the data were processed

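Raw counts per Ensembl gene were deposited for 7 libraries. A 3' digital mRNA-seq service made and sequenced these from 125 ng of total RNA (single-end, 100 cycles), per the labels' protocols. STAR, HTSeq, edgeR and hg38 stand in the submitters' processing notes without version. How strand and molecular identifiers were handled, and which annotation was counted, is not given in the sources used here. A read may therefore not be an independent molecule, and floors cover counting error only.

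Of 33694 genes, 12404 passed filterByExpr (at least 10 counts, total of at least 15). These were fitted in edgeR 4.0.16 (R 4.3.3) by the robust quasi-likelihood method (estimateDisp, glmQLFit, glmQLFTest) with TMM factors and group as the only term. Adjusted p-values are Benjamini-Hochberg over all 12404, and a gene is called below 0.05. The SE is the absolute log2 fold change divided by the square root of F. The script was tested on simulated data. Alternatives were DESeq2 1.42.0, limma-voom (limma 3.58.1), other scalings and filters, thinning, a replicate block and leaving out each library.

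The 9 genes, the lists and the tests were chosen with earlier results of these data known. Named are the 9 genes, SLC2A2, the 4 called genes of lowest adjusted p in a list (the 2 of highest CPM in lists with fewer than 2 calls), the 5 genes most like SLC16A1, and overlapping, antisense or pseudogene neighbours with at least 10 counts. BDH1, LDHB, DLD, MPC1, MPC2, CA2, CD44, NPTN, SP1, GGT1, COL1A1 and the keratins were named after their values were seen. Some genes that the rule or a list holds are not reported here by name. AC009005.1, AC132872.3 and AL355488.1 also overlap members (BSG, SLC16A3, SLC16A4) and had 393, 105 and 34 counts in all.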

Additional observations from a re-analysis of the deposited data

Results flagged for a closer look

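In the 4 scrambled libraries, the level of 3 of 43 named genes had 1 library far from the others by Dixon's criterion, which chance meets in about 1 of 20 groups. SLC16A9 was at 17.6 CPM in scrambled replicate 3, where the other scrambled libraries were at 12.5 to 13.0 CPM. SLC16A12 was at 29.5 CPM in scrambled replicate 1 against 16.3 to 18.4 CPM, close to the lowest siGLUT2 library at 29.97 CPM. SLC25A1 was at 226 CPM in scrambled replicate 1 against 176 to 184 CPM, and all scrambled libraries lay above its siGLUT2 range of 26.0 to 42.2 CPM.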

How the results depend on the processing

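Over 18 alternatives the number of genes called ranged from 2649 to 3778 around 3509, and from 2796 to 3778 with 1 library left out. Called genes of the 7 lists ranged from 13 to 18 around 17, and the log2 fold change of SLC16A1 from -2.56 to -2.44. The 9 genes were chosen on this contrast, so their side of the threshold describes the fit and is no test. SLC16A3 was not past it with the replicate block (-0.32), without scrambled replicate 1 (-0.30), 2 (-0.35) or 4 (-0.33), or without siGLUT2 replicate 2 (-0.21) or 3 (-0.38). Over the 18 alternatives, SLC16A9 was past it only without siGLUT2 replicate 3 (-0.89). The sign of SLC16A4 turned without scrambled replicate 4 (0.07) or siGLUT2 replicate 2 (0.15), and that of BSG without siGLUT2 replicate 4 (-0.02). The cause was not tested. Scalings moved the median of all genes by less than 0.1.

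Deviations of same-numbered libraries from their group means correlated between -0.0032 and 0.0152 across genes, so no pairing was visible in this measure. A link limited to part of the genes might not show in it. With the replicate block, edgeR called 2649 genes in all and 15 in the lists, SLC16A1 was at -2.46, and EMB (1.13), CA2 (-1.16) and SLC2A2 did not pass. Depth limits SLC16A4 and SLC16A6, which rest on 71 and 37 counts.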
